A study of Mus musculus with 12 samples.

Results

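Methylated RNA immunoprecipitation sequencing (MeRIP-seq) was used to compare N6-methyladenosine (m6A) along hippocampal transcripts of male C57BL/6 mice at 2 ages, 3 months (young) and 20 months (aged), all untreated as far as the labels state. The peaks described here are those that lie outside the 5'UTR and start codon. The table of peaks that differ with age has 862 rows for 529 unique peaks, and 297 of these peaks, in 292 gene names, carry no 5'UTR or start codon annotation in any row. Of the 297, 74 carry a 3'UTR or stop codon annotation, 186 are annotated to exons only, 34 to introns only and 3 to both exon and intron, and the other 232 peaks of the table have a 5'UTR or start codon row. Each age had 3 immunoprecipitate libraries, each from the hippocampal RNA of a separate animal, and the animals had been picked after a qPCR pre-check. The study's qPCR of hippocampal RNA covered Neat1, C4b, Trem2 and Cldn2, and whether the pick used these genes was not stated. The Neat1 and Cldn2 values below may therefore not be independent of the pick. The values are immunoprecipitate reads. The input libraries were not analysed here, so a difference in methylation and a difference in the level of the transcript cannot be told apart.

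m6A is written onto RNA during transcription by a methyltransferase complex around Mettl3 and Mettl14, mostly at DRACH 5-mers (D is A, G or T, R is A or G, and H is A, C or T), among which GGAC is the most used core. In mammalian mRNA it is concentrated in long internal exons and around the stop codon and start of the 3'UTR, where reader proteins bind it and influence decay, translation and localisation. In the brain, m6A is abundant and is linked to synaptic plasticity and to the transport of transcripts into neurites.

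The table holds only peaks that the authors selected, by fold change and adjusted p, for a difference between these same libraries. The p-values below are therefore not independent evidence, and the sizes of the differences were shaped by that selection. Genes that mark the hippocampus cannot be checked from the table, since a gene without a selected peak has no row. Reads were scaled to CPM, counts per 1000000 reads of a recovered library size, and that size was 14914095, 12814321 and 16084217 reads for young libraries 1 to 3 and 12534186, 6158014 and 8736248 reads for aged libraries 1 to 3. Where 3 values are listed for an age below, they follow that order. The 297 peaks held between 185100 reads in aged library 2 and 411021 in young library 2, with a median per peak of 216 to 437. Young library 2 stood apart from the other young libraries at most peaks, as described below. A log2 difference is aged minus young, and a peak is called higher or lower by its sign alone, whether or not it passed a test.

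Of the 6 peaks that rose, 5 have a gene strand rich in purines (A and G), so stretches of 30 bases from some of these and from other purine-rich peaks are printed here from GRCm38, on the strand of the annotated gene, with copies of the most frequent 6-mer of each peak in capitals. They come from introns of Adarb2 (chr13:8330647-8330676, + strand), Erdr1 (chrY:90812637-90812666, +), Nme7 (chr1:164328893-164328922, +), Fars2 (chr13:36206171-36206200, +) and Ppm1e (chr11:87263088-87263117, -) and from the 3'UTR of Epha5 (chr5:84066802-84066831, -).
Adarb2: gagacAGAGAGgcAGAGAGaAGAGAGAGAG
Erdr1: agAGACAGtgacagagAGACAGACAGACAG
Nme7: gcAGAGAGAGgcAGAGAGAGAGgcAGAGAG
Fars2: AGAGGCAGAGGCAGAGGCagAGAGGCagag
Ppm1e: ttggGAGGCAGAGGCAaaggcagaGAGGCA
Epha5: agAGGAAAGGAAAGGAAAaAGGAAAGGAAA

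For comparison, stretches of up to 21 bases around the DRACH 5-mer nearest the centre (a GGAC-containing one where the peak had any), with the 5-mer in capitals, are printed for exon and 3'UTR peaks named below. Higher peaks are Neat1 (chr19:5843983-5844003, -), Apod (chr16:31297341-31297361, -), C1qc (chr4:136890497-136890517, -) and Mobp (chr9:120180651-120180671, +). Lower peaks are Cldn2 (chrX:139809462-139809482, +), Dcun1d1 (chr3:35894986-35895006, -), Setdb1 (chr3:95327583-95327603, -), Arid4b (chr13:14187113-14187133, +) and Zmat1 (chrX:134973275-134973295, -).
Neat1: aaggtgtaGGACActttaacg
Apod: aactgcccGGACTtcctgtaa
C1qc: ccccagggGGACCtcagggtt
Mobp: tcacagccAGACCcggcaaag
Cldn2: aaagcagtGGACAatgccccc
Dcun1d1: taatctggGGACTccctgaaa
Setdb1: aaggatgaGGACTtcagcacc
Arid4b: gttaaaaaGGACAcaacagac
Zmat1: ttgaggaaGGACTcccatgtg

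Outside the 5'UTR the list went both ways. Of the 297 peaks 190 were higher and 107 lower in aged mice, with a median log2 difference of 0.53, against 0.59 over all 529 listed peaks, of which 78.8% were higher. These counts depended on the scaling: 141 of the 297 were above 0 with TMM and 137 with DESeq2 size factors. The counts by class that follow use the recovered library sizes only. Among 3'UTR and stop codon peaks 48 were higher and 26 lower (median of each, 0.62 and -0.72). Exon peaks gave 110 higher and 76 lower (0.60 and -0.69), and intron peaks 30 higher and 4 lower (0.99 and -0.78). By contrast, 227 of the 232 peaks at the 5'UTR or start codon were higher.

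By edgeR's quasi-likelihood test, adjusted over all 529 peaks at 0.05, 6 of the 297 rose in aged mice and 0 fell. Of all listed peaks, 1.13% rose and 0.0% fell, and all 6 that rose are intron peaks of Erdr1, Adarb2 and Dlgap2. The count that fell depended on the scaling: with TMM 85 fell and with DESeq2 size factors 44. Under each of these 6 rose, but not the same 6, since the Dlgap2 peak did not pass under either. At an unadjusted p under 0.05, 41 peaks were higher and 47 lower. Every aged library lay above every young one at 70 of the 297 peaks and below at 77, against 32.1% and 14.9% of all listed peaks. Among intron peaks 19 of 34 had every aged library above, among exon peaks 33 of 186, and among 3'UTR peaks 18 of 74. The reverse held for 2, 55 and 19 of them. The counts that passed depended on which young libraries entered: without young library 2, 185 of the peaks were higher and 98 lower at an adjusted p under 0.05, and without young library 3, 14 were higher and 0 lower.

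**Figure D1:**
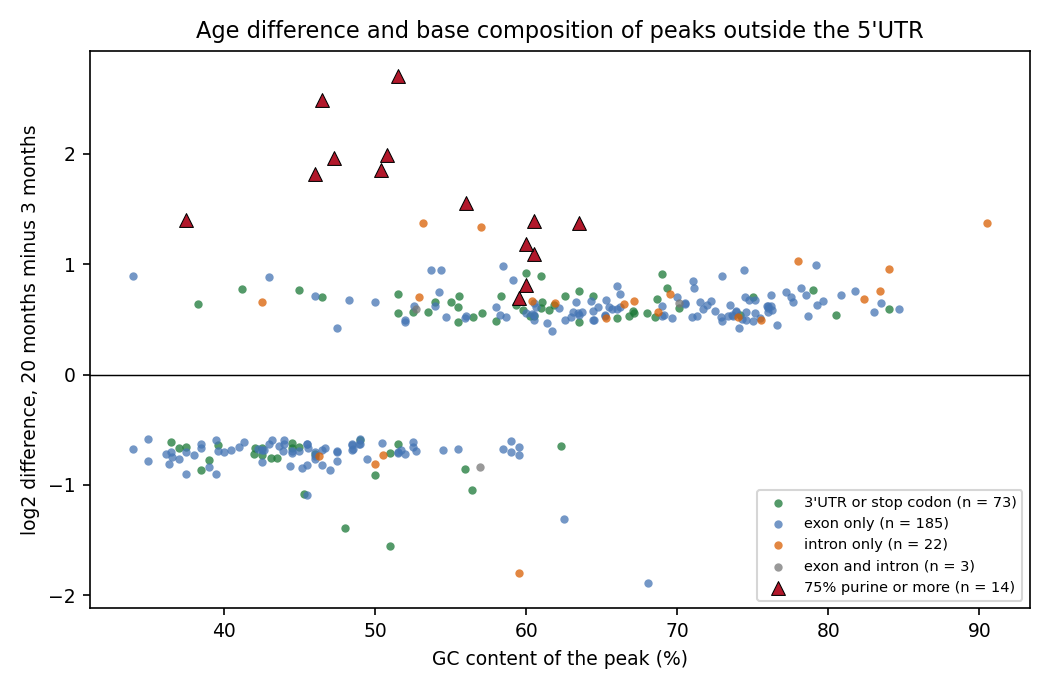
Log2 difference between 20-month-old and 3-month-old libraries (vertical axis) against the GC content of each of the 297 peaks in percent (horizontal axis), coloured by annotation, with 14 peaks of at least 75% purine as triangles. Lower peaks stop at 68.1% GC, higher peaks reach 90.5%, and the triangles reach the highest differences at GC contents between 37.5% and 63.5%.

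The largest rise was in an intron of Adarb2, which encodes a brain protein related to the enzymes of adenosine-to-inosine editing and is a marker of a class of inhibitory neurons. The peak (mm10 chromosome 13, 8330619 to 8330819, as deposited) had 4.09, 2.497 and 2.42 CPM in the young libraries, in order of their numbers, and 20.98, 15.3 and 22.7 CPM in the aged ones. All aged values were thus several times the highest young one. The log2 difference was 2.71 (SE 0.39, n = 3 per age, edgeR quasi-likelihood adjusted p 0.000906). The whole peak is soft-masked repeat. The nearest exon of the annotated transcript used for position is about 127400 bases away, and other transcripts of the gene were not checked for a nearer exon.

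Erdr1, which encodes erythroid differentiation regulator 1 and lies in the pseudoautosomal region as assembled on chromosome Y, had 5 intron peaks within 90811325 to 90814353. The peak at 90812486 to 90812686 had 6.97, 8.27 and 4.54 CPM in young libraries and 31.9, 34.3 and 44.9 CPM in aged ones (log2 difference 2.49, SE 0.35, edgeR adjusted p 0.000906). The peak starting at 90812185 had 17.1, 19.0 and 14.9 CPM in young and 69.7, 62.4 and 70.9 CPM in aged libraries (log2 difference 1.99, SE 0.31, edgeR adjusted p 0.00183). At 90812185 the libraries of each age lay close to each other. The peak at 90812486 varied more for its level (SD 1.9 CPM in young and 6.9 CPM in aged libraries).
The peaks starting at 90811811 and 90811325 rose by 1.97 and 1.85 on the log2 scale (edgeR adjusted p 0.00183 and 0.00857). The fifth, at 90814153, was the weakest covered of the group, with 11 to 22 reads in young and 22 to 57 in aged libraries, and its log2 difference of 1.81 did not pass (edgeR adjusted p 0.163). At all 5 peaks every aged library lay above every young one. The Erdr1 peak at 90811325 lost its call without aged library 3 (log2 difference 1.80, edgeR adjusted p 0.0552), while the other peaks that rose in Erdr1, and Adarb2, passed under every alternative run.

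Dlgap2, a scaffold gene of the postsynaptic density, had a pair of neighbouring intron peaks on chromosome 8. At 14307057 to 14307278 the young libraries had 17.5, 23.6 and 19.1 CPM and the aged libraries 54.3, 48.4 and 49.1 CPM (log2 difference 1.34, SE 0.30, edgeR adjusted p 0.0385). Its neighbour at 14306798 had 40.8, 58.7 and 39.8 CPM against 122.1, 113.5 and 125.2 CPM (log2 difference 1.37, SE 0.34, edgeR adjusted p 0.0785). The aged values of both peaks were tight and more than double any young CPM at the first peak and nearly so at the second. Neither Dlgap2 peak holds any soft-masked base, and their purine contents were 69.2% and 71.2%. The call at 14307057 was lost under scaling by column totals, by TMM or by DESeq2's size factors (log2 difference 0.81, 0.69 and 0.67; adjusted p 0.0514, 0.0577 and 0.0887), with the replicate number as a block (adjusted p 0.0621), and without young library 1 or any 1 aged library (adjusted p from 0.14 to 0.362).

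Adarb2 and Erdr1 belong to a set of 14 peaks whose gene strand is at least 75% purine, a limit chosen after the values were seen, so the set gets no test. The set is Adarb2, the 5 Erdr1 peaks, Ppm1e, Epha5, Sv2b, Fars2, Nme7, Tmem178, Krt9 and Zbtb16. It takes in 12 intron peaks, 1 3'UTR peak and 1 exon peak, and none of the 232 peaks at the 5'UTR or start codon, whose purine content stopped at 67.3%. More than 90% of the bases were soft-masked repeat in 12 of the 14. All 14 were higher in aged mice, with a median log2 difference of 1.47 against 0.53 for the other 283 peaks outside the 5'UTR, and 11 of the 14 had every aged library above every young one, against 32.1% of all listed peaks. Just outside the limit lay Srek1 (73.7% purine, log2 difference 0.64) and St6galnac3 (73.6%, 0.71).

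The motifs fall into a few families. At least 3 copies of AGACAG (overlaps allowed, gene strand only) occurred in 8 of the 529 listed peaks (1.51%), 7 of them in the purine-rich set, and at least 3 copies of AGAGAG in 17 (3.21%), 12 of them in the set. GGCAGA reached 3 copies in 7 peaks (1.32%), 6 of them in the set, and GGAAAG in 2 (0.378%), 1 of them in the set. These 6-mers were not chosen independently of these peaks. AGAGAG and GGAAAG are all purine, so a purine-rich set favours them by construction. Most of the 7 AGACAG peaks in the set are neighbouring Erdr1 peaks. The AGACAG repeat of Erdr1 contains the DRACH 5-mer AGACA, so that each Erdr1 peak holds 22 to 34 DRACH 5-mers. The AGAGAG and AGGAAA repeats do not contain one: Nme7, Tmem178, Sv2b and Epha5 have 0 DRACH 5-mers in the peak. The Adarb2 peak, whose most frequent 6-mer is also AGAGAG, holds 11 DRACH 5-mers. Reads in tandem repeats can align at several places, and the authors kept uniquely mapped reads. How far that shaped these counts was not tested.

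Over the 14 peaks together, young libraries 1 to 3 had 1499, 1383 and 1341 reads and aged libraries 1 to 3 had 4416, 1815 and 3070. As a share of all reads in listed peaks, which needs no library size, this was 0.279%, 0.197% and 0.288% in young and 0.633%, 0.563% and 0.613% in aged libraries. The lowest aged share was close to double the highest young one. The 14 peaks lie in 10 genes, and neighbouring Erdr1 peaks held the largest part of the set's reads in every library. These sums therefore lean on Erdr1. The summed levels were 100.5, 107.9 and 83.4 CPM against 352.3, 294.7 and 351.4 CPM.

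**Figure D2:**
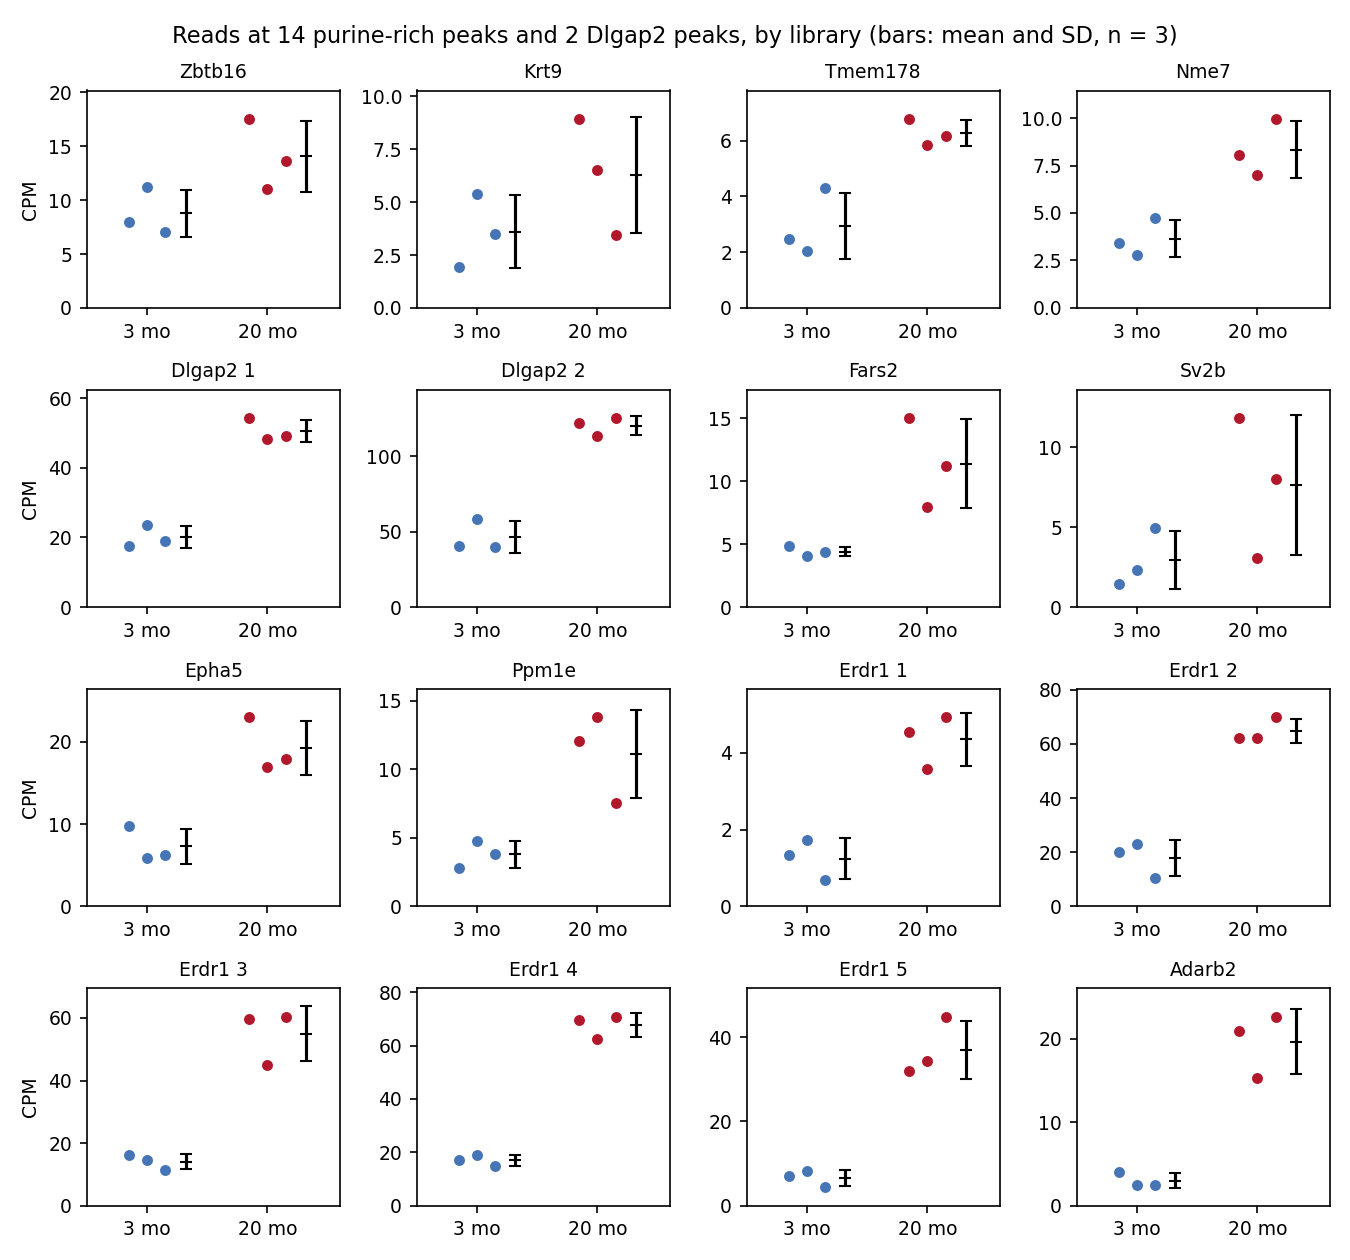
CPM (vertical axes, each starting at 0) in the 3 libraries of each age for the 14 purine-rich peaks and both Dlgap2 peaks, ordered by log2 difference, with the 5 Erdr1 peaks and the Dlgap2 peaks numbered in that order. Points are libraries and bars the mean and SD (n = 3). Ages are apart in all panels except Zbtb16, Krt9 and Sv2b.

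Among the members of that set outside Adarb2 and Erdr1, the Epha5 peak is the one in a 3'UTR, 619 bases past the stop codon in the last of 17 exons. Epha5 encodes an ephrin receptor of axon guidance. It had 9.79, 5.85 and 6.28 CPM in young and 23.0, 16.9 and 17.9 CPM in aged libraries (log2 difference 1.40, SE 0.35, edgeR adjusted p 0.0785). All aged values exceeded all young ones, but the peak did not pass.
Ppm1e, a phosphatase gene whose product acts on calmodulin-dependent kinases, had 2.82, 4.76 and 3.79 CPM against 12.1, 13.8 and 7.56 CPM (log2 difference 1.55, edgeR adjusted p 0.0945). Fars2, the mitochondrial phenylalanine tRNA synthetase gene, had 4.83, 4.06 and 4.35 CPM against 15, 7.96 and 11.2 CPM (1.37, adjusted p 0.146). For Sv2b, a synaptic vesicle protein gene, the ages overlapped: 1.48, 2.34 and 4.97 CPM against 11.8, 3.09 and 8.01 CPM (1.39, adjusted p 0.167). Nme7 (1.19), Tmem178 (1.09), the keratin gene Krt9 (0.82) and Zbtb16, a zinc finger transcription factor gene (0.69), had adjusted p values of 0.167 to 0.175.

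The other 22 intron peaks had a median log2 difference of 0.66, with 18 higher and 4 lower. Part of them lay close to a gene's start: 9 of these 22 were within 500 bases of an annotated transcript start. The Mpped1 peak was one of these, 174 bases from a start and 90.5% GC, with 5.90, 9.29 and 1.74 CPM in young and 15.4, 12.99 and 15.1 CPM in aged libraries (log2 difference 1.37, edgeR adjusted p 0.167). Espn, which encodes the actin-bundling protein espin, was 107 bases from a start and had 29.2, 25.7 and 25.9 CPM against 46.4, 45.6 and 36.3 CPM (log2 difference 0.67). Its ages did not overlap, but the sign was the opposite under TMM (-0.0084) and under DESeq2 size factors (-0.029).
The 4 lower intron peaks were in Asmt, Calm2, Anks1b and Gm1976. Asmt encodes the last enzyme of melatonin synthesis and lies, like Erdr1, in the pseudoautosomal region. It had 7.24, 8.90 and 46.3 CPM in young and 6.54, 3.74 and 7.44 CPM in aged libraries (log2 difference -1.80, SE 0.59, edgeR adjusted p 0.167). Young library 3 held most of that difference, and the ages overlapped. Calm2, a calmodulin gene, had its high value in young library 2 instead (12.3, 25.9 and 8.27 CPM against 8.78, 7.47 and 10.1 CPM, log2 difference -0.81). At Anks1b, a postsynaptic density gene (-0.74), and Gm1976 (-0.73), every aged library lay below every young one.

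In the 3'UTR and around the stop codon 0 of the 74 peaks passed the test, against 1.13% of all listed peaks that rose. Of the 69 located in an exon of an annotated coding transcript, 64 lay in its last exon, and the median position was 187 bases past the stop codon. The anion exchanger gene Slc4a3 had 14.01, 26.4 and 5.60 CPM in young and 26.6, 29.6 and 30.8 CPM in aged libraries (log2 difference 0.92, edgeR adjusted p 0.167). The aged libraries were close together and young library 2 came nearest to them. A pair of peaks in Oaf had 0.89 and 0.57.

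Glial transcripts were listed in the same region. Mobp, a myelin protein gene of oligodendrocytes, had a 3'UTR peak with 765.2, 1201 and 485.8 CPM in young and 1634, 1326 and 1049 CPM in aged libraries (log2 difference 0.71, SE 0.44, edgeR adjusted p 0.182), with young library 2 inside the aged range. Apod, an apolipoprotein gene of myelinating glia, had 199.5, 249.8 and 178.7 CPM around the stop codon against 327.3, 324.9 and 413.4 CPM (0.76, SE 0.37, adjusted p 0.167), with no overlap. Efnb3, an ephrin gene, was the third member of the oligodendrocyte list with a peak (exon, 0.79). In whole tissue, a change in the number of cells of a type and a change in RNA per cell cannot be told apart.
Gpr17, a receptor gene of committed oligodendrocyte precursors, had 4 peaks spread over the 3'UTR of its second exon on chromosome 18, with their centres 304, 758, 1425 and 1867 bases past the stop codon. The peak at 1425 bases had 182.8, 140.9 and 241.1 CPM in young and 95.3, 92.6 and 85.1 CPM in aged libraries (log2 difference -1.05, SE 0.36, edgeR adjusted p 0.167). At 304 bases the values were 179.8, 126.3 and 200.4 CPM against 88.9, 82.5 and 97.8 CPM (-0.91), at 758 bases 49.8, 43.1 and 61.2 CPM against 27.1, 27.8 and 30.2 CPM (-0.86), and at 1867 bases 27.0, 47.0 and 27.3 CPM against 25.1, 22.4 and 16.8 CPM (-0.65). All 4 had every aged library below every young one. Young library 2 was the lowest young library at the first 3 and the highest at the most distal, which is also the most GC-rich (62.3%).

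Over all lower 3'UTR and stop codon peaks, Gpr17 included, the exon holding the peak had a median of 3595 bases, against 2018 bases for the higher ones. Cldn2, a claudin gene of choroid plexus tight junctions, had 29.0, 7.10 and 45.1 CPM in young and 5.27, 3.74 and 18.5 CPM in aged libraries (log2 difference -1.56, SE 0.61, edgeR adjusted p 0.167). Its libraries varied within both ages and overlapped between them. Tbck, a kinase-like gene linked to mTOR signalling, had 6.50, 5.46 and 16.6 CPM against 2.95, 4.55 and 3.55 CPM (-1.39, adjusted p 0.167), and young library 3 carried much of that. Dcun1d1, which promotes neddylation of cullins, had 38.3, 20.5 and 32.7 CPM against 17.7, 13.5 and 18.9 CPM (-0.87), and Brwd3, a bromodomain gene, 34.4, 22.7 and 46.8 CPM against 18.1, 20.3 and 23.2 CPM (-0.75). Dcun1d1 separated the ages and Brwd3 did not.

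Higher and lower exon peaks differed in position. Of higher ones with a gene found, 52 of 107 lay within 500 bases of an annotated transcript start, against 9 of 73 lower ones. Of those located in an exon, 49 of 86 higher and 5 of 70 lower peaks lay in the first exon of the transcript used. Where a coding position could be set, its median was 26.0% of the coding sequence for higher and 54.9% for lower peaks, and the exon holding the peak had a median of 794 against 2200 bases. The split at 500 bases was chosen after values were seen. So many of the higher exon peaks are body peaks by annotation and close to a start by distance, and the median GC content of these 52 was 74.0%, against 64.3% for the 55 farther away. Those farther away still had a median log2 difference of 0.62, against 0.58 near a start.

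**Figure D3:**
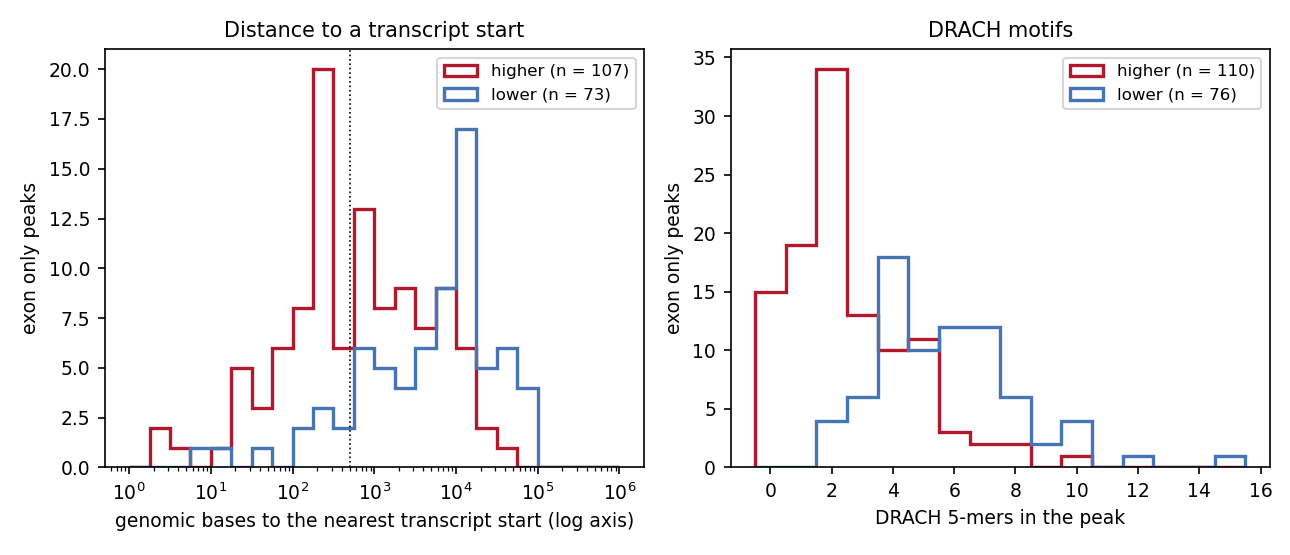
Left, number of exon peaks by distance of the peak from the nearest annotated transcript start of its gene in genomic bases (log axis; dotted line at 500 bases). Right, number of exon peaks by DRACH 5-mers in the peak. Of the higher peaks (red) 52 of 107 lie left of the line and of the lower peaks (blue) 9 of 73, and the median number of motifs is 2 for higher and 5.5 for lower peaks.

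Among higher exon peaks, the largest difference was in Lonrf1, a RING finger gene, whose first exon had 14.5, 14.1 and 8.58 CPM in young and 21.7, 24.5 and 27.8 CPM in aged libraries (log2 difference 0.996, SE 0.33, edgeR adjusted p 0.167). Neat1, the long noncoding RNA that builds paraspeckles, had 3 peaks, the farthest 1284 bases from an annotated start. The one at 5843826 to 5844124 on chromosome 19 had 167.2, 133.2 and 123.5 CPM against 283.8, 222.8 and 311.7 CPM (0.95, adjusted p 0.167), and the others had 0.95 and 0.99. All 3 had every aged library above every young one, and Neat1 was among the genes of the study's qPCR.
The noncoding RNA Tug1 had 15.2, 40.7 and 10.6 CPM against 37.3, 36.5 and 49.1 CPM (0.89). Here young library 2 lay inside the aged range, unlike at the Neat1 peaks. The complement gene C1qc, a microglial marker, had 116.9, 180.7 and 94.1 CPM against 206.5, 189.3 and 252.3 CPM (0.73), and Tmem119, another, 20.9, 38.9 and 14.8 CPM against 41.3, 41.6 and 34.9 CPM (0.66). C1qc separated the ages and Tmem119 did not. Apoe, the main lipid carrier of astrocytes, was among the most covered peaks, with 2093, 3293 and 1369 CPM against 3403, 3200 and 3109 CPM (0.52, adjusted p 0.275), and the sign was the opposite under TMM (-0.020) and under DESeq2 size factors (-0.028). The same held for Rbm15b, a subunit gene of the m6A writer complex and the 1 member of the m6A machinery list with a peak (0.53, -0.020 with TMM and -0.026 with DESeq2 size factors).

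Lower exon peaks lay in longer exons, and those described here are taken from the chromatin, ubiquitin, cytoskeleton and synapse lists and from the most negative values. Setdb1, a histone H3 lysine methyltransferase gene, had 29.6, 26.5 and 29.4 CPM in young and 18.1, 17.5 and 16.6 CPM in aged libraries (log2 difference -0.71, SE 0.29, edgeR adjusted p 0.167). Arid4b, a subunit gene of a Sin3 deacetylase complex, had 98.4, 64.5 and 102.1 CPM against 46.3, 52.0 and 53.0 CPM (-0.81), and the chromatin remodeller gene Chd1 43.3, 43.2 and 50.3 CPM against 31.3, 24.2 and 29.0 CPM (-0.69). In all 3 the ages did not overlap. Usp9x, a deubiquitinase gene, had 194.1, 124.0 and 227.2 CPM against 94.9, 101.8 and 117.2 CPM (-0.80), and Socs2, a substrate receptor of cullin ligases, 28.5, 19.4 and 31.8 CPM against 17.7, 15.1 and 14.99 CPM (-0.74).
Map2, the microtubule-associated protein of dendrites, had 301.2, 270.7 and 367.7 CPM in a 3741-base exon against 196.7, 191.8 and 186.6 CPM (-0.71). Golgb1, a Golgi tether gene, had 29.1, 26.2 and 27.5 CPM in a 5129-base exon against 17.2, 21.1 and 13.1 CPM (-0.69). Ages did not overlap at either. Ank3, which builds the axon initial segment (-0.66, 7674-base exon), and Apc, of Wnt signalling and microtubule ends (-0.75, 10548-base exon), overlapped between ages. Pclo, a scaffold of the presynaptic active zone, had 108.0, 121.7 and 130.3 CPM against 80.5, 81.5 and 70.3 CPM (-0.63).
The most negative exon values came from thinly covered peaks. Nrxn2, a presynaptic adhesion gene, had 39, 26 and 115 reads in young and 15, 9 and 5 in aged libraries (2.62, 2.03 and 7.15 CPM against 1.20, 1.46 and 0.57 CPM; log2 difference -1.89, SE 0.64, edgeR adjusted p 0.167). The peak shared by C230062I16Rik and Gm10169 (-1.31) and Plekhg1 (-1.10), likewise had at most 20.0 CPM in any library. Young library 3 carried much of these differences: without it they were -1.13 for Nrxn2, -0.53 for the C230062I16Rik and Gm10169 peak and -0.79 for Plekhg1. The zinc finger genes Zmat1 (-0.90) and Zfp605 (-0.91) followed.

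By the gene lists, the counts of higher and lower peaks ran as follows, beside 190 and 107 for all peaks outside the 5'UTR, with no peak past the test unless stated. Ubiquitin and SUMO genes had 0 higher and 7 lower peaks (Dcun1d1, Klhl11, N4bp1, Senp6, Socs2, Trim33 and Usp9x), with a median log2 difference of -0.70. At all 7 every aged library lay below every young one, against 14.9% of all listed peaks. Among lower peaks outside the 5'UTR that was so at 77 of 107, so it is common to lower peaks. Chromatin genes had 1 and 5 (Kmt2d higher at 0.58, median -0.70), cytoskeleton and axon genes 1 and 6 (Epha5 higher, median -0.69), zinc finger genes 4 and 10 (median -0.67), and presynaptic and adhesion genes 1 and 4 (Sv2b higher, median -0.70). Postsynaptic genes had 5 and 1, in 5 genes with 2 of the peaks in Dlgap2, beside 78.8% higher among all listed peaks. The higher ones included 1 Dlgap2 peak past the test, Shank3 (0.54) and Iqsec2 (0.53). The Shank3 and Iqsec2 values are smaller in size than the median shift with TMM (-0.573) or DESeq2 size factors (-0.583). Clustered protocadherins, neuronal adhesion genes of chromosome 18, had 4 higher (Pcdhga2 0.85, Pcdhb9 0.75, Pcdhb3 0.71, Pcdhga6 0.61) and 1 lower (Pcdhga4, -0.82), and none of these overlapped between ages (of all listed peaks, 32.1% had every aged library above and 14.9% every aged library below).
These lists differed in composition too: the median GC content was 42.5% for the ubiquitin, 43.8% for the chromatin and 64.2% for the postsynaptic peaks. Of the cell type lists, oligodendrocyte genes had 3 higher and 0 lower, microglia 2 and 0, astrocytes 1 and 0, precursors 0 and 4 (all Gpr17), choroid plexus and meninges 0 and 2 (Cldn2, and Myoc with -0.84 at a peak shared with 7420461P10Rik), excitatory neurons 1 and 2 and inhibitory neurons 1 and 0 (Adarb2, which passed). No endothelial or mural marker had a peak outside the 5'UTR. The pseudoautosomal list had 5 higher Erdr1 peaks, 4 of which passed, and the lower Asmt peak.

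Base composition differed between the directions. The median GC content was 65.0% among higher and 45.5% among lower peaks. This held among exon peaks (69.4% and 45.5%) and among 3'UTR and stop codon peaks (60.8% and 44.5%). Across the 297 peaks GC content and log2 difference had a Pearson correlation of 0.56 and a Spearman correlation of 0.53, and across the 283 without the purine-rich set 0.68 and 0.60. In the 119 exon peaks more than 500 bases from a start, the Pearson correlation was 0.66. Peaks share the same 6 libraries, so these values describe the list only. GC content also ran with a difference among the young libraries: the log2 of young library 2 minus the mean of young libraries 1 and 3 had a Pearson correlation of 0.62 with GC content over the 297 peaks.

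Of the young libraries, number 2 had the highest value at 171 of 190 higher peaks and the lowest at 83 of 107 lower ones. Against the mean of the aged libraries, young libraries 1 to 3 had medians of -0.82, -0.09 and -1.35 over higher peaks and 0.77, 0.41 and 0.91 over lower peaks. It thus lay closest to the aged libraries in both directions, and was inside the aged range at 98 of the 297. The coefficient of variation had a median of 34.7% over young and 12.7% over aged libraries. Over the 14 purine-rich peaks the 3 young medians were -1.70, -1.60 and -1.59, so there young library 2 did not stand nearer to the aged libraries. The part of composition and of young library 2 in the age differences was not tested beyond leaving that library out.

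**Figure D4:**
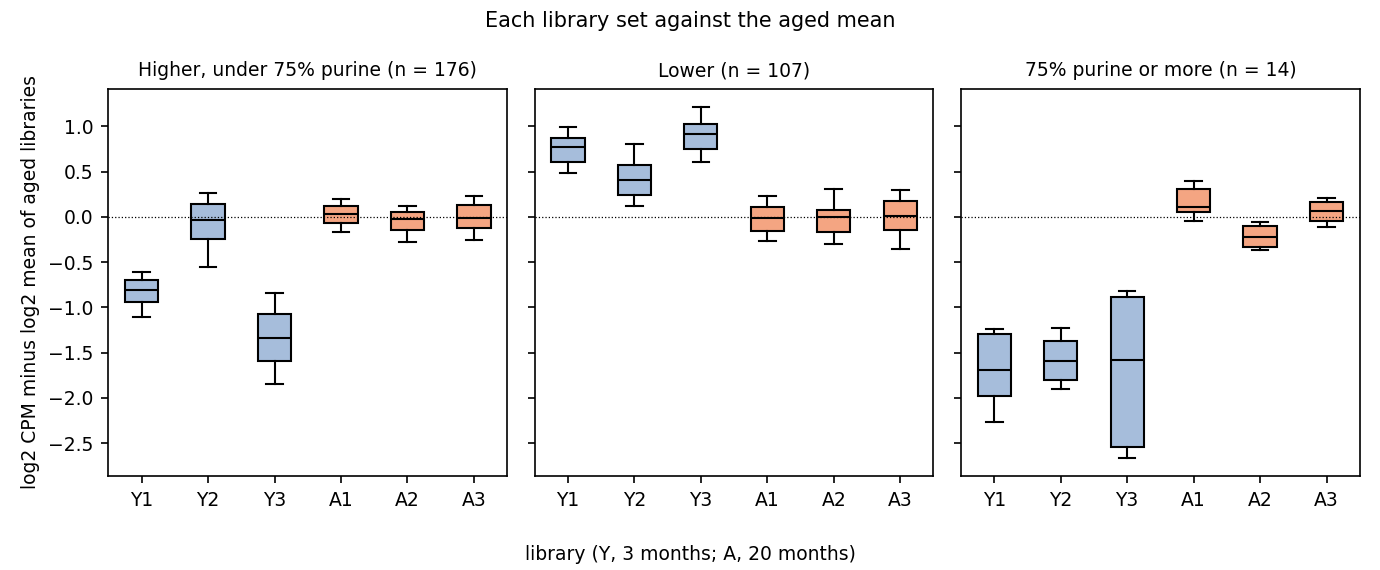
Each library's log2 CPM minus the log2 of the aged mean (vertical axis) for higher peaks under 75% purine, lower peaks and peaks of at least 75% purine. Boxes span the quartiles, lines are medians and whiskers run from the 10th to the 90th percentile of peaks. Young library 2 (Y2) overlaps the aged libraries in the first panel and sits with the other young libraries in the third.

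The share of listed reads needs no library size. The 3'UTR and stop codon peaks held 13.7% ± 0.19 at 3 months and 13.4% ± 0.76 at 20 months (SD, n = 3 libraries), exon peaks 45.7% ± 3.42 and 40.2% ± 1.17, and intron peaks 2.34% ± 0.060 and 2.93% ± 0.037. The exon shares were 44.9%, 42.7% and 49.4% in young and 41.0%, 40.7% and 38.8% in aged libraries, so that every aged share lay below every young one. Shares add up to the whole, and the 5'UTR and start codon peaks held 38.1% ± 3.67 in young and 43.3% ± 1.88 in aged libraries. The summed level of the exon peaks was 16176, 23350 and 14302 CPM in young and 22802, 21330 and 22258 CPM in aged libraries, so that every aged library lay above young libraries 1 and 3 and below young library 2. For introns every aged share lay above every young one, the lowest aged share being 2.89% and the highest young share 2.40%.

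Several genes had more than 1 peak. In the 16 genes with at least 2 peaks outside the 5'UTR (39 peaks), all peaks of a gene had the same sign. Pcdh1, a protocadherin gene, had 3 higher 3'UTR peaks (0.56, 0.63 and 0.71), the first of which turned sign with DESeq2 size factors (-0.0026), and Lrrn3, a neuronal leucine-rich repeat gene, 2 lower exon peaks (-0.67 and -0.59). Against a listed peak at the 5' end of the same gene, the ratio of the 2 needs no library size and sets peaks of 1 gene against each other; transcripts that carry only 1 of them still enter it. Such a ratio could be taken for 9 genes. In Trim33, a ubiquitin ligase gene, the log2 of the stop codon peak over the 5'UTR peak was 0.16, 0.0073 and -0.019 in young and -1.27, -0.76 and -2.26 in aged libraries. In N4bp1, an RNA decay gene of innate immunity, it was 1.64, 0.28 and 2.16 against -0.18, 0.21 and -0.020, and in Ccdc88a, an actin regulator gene, 1.52, 0.27 and 1.98 against -0.022, 0.25 and -0.50.
The ages did not overlap in these 3, though in N4bp1 and Ccdc88a young library 2 came close to the aged values. Senp6, a SUMO protease gene, overlapped (1.99, 0.46 and 2.04 against -0.15, 0.89 and 0.10). The remaining genes, Arhgap23, Bcl7c, Drap1, Eml2 and Gabbr1, had both peaks higher and a ratio that differed between ages by -0.36 to 0.21 on the log2 scale, with overlap in all. These ratios were looked at because the genes had both kinds of listed peak, and were not tested.

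A DRACH 5-mer was present in 269 of the 297 peaks (90.6%), against 97.0% of windows of the same length 500 bases to either side on the genome. It was found in 106 of 107 lower and 163 of 190 higher peaks. GGAC, read on the gene strand, was in 66.3% of the 297 peaks and 52.9% of the flanking windows. In lower exon peaks it was in 71.1% against 42.8% of flanking windows, in higher exon peaks in 69.1% against 56.8%, and in the purine-rich set in 3 of 14. Median GC content was 45.5% in lower exon peaks and 43.75% in their flanking windows, and 69.4% and 55.5% for higher exon peaks. How far base composition shaped the motif counts was not tested, and the counts give no measure of methylation.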

How the data were processed

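Hippocampal poly(A) RNA of 3 young and 3 aged mice was immunoprecipitated with an m6A antibody. Per the submitters' processing notes the build was mm10 and the tools were STAR 2.5.3a, bedtools 2.25.0, Bowtie2 2.2.7, Subread 1.6.4, Trimmomatic 0.36, MACS2 2.2.1 and SAMtools 1.3. After trimming, reads of ribosomal RNA and PhiX were discarded, unique alignments were kept, and peaks over input were recentred on the summit. The authors deposited raw read counts for those peaks that they called differential. The strand setting of the counting was not given in the sources used here. The deposited log2 mean abundance per peak comes from the authors' edgeR fit. Columns that hold the authors' fold change, likelihood ratio, p-value and adjusted p were not used.

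Rows were collapsed to unique peaks by position, and peaks with a 5'UTR or start codon row were set aside. Column totals over selected peaks are not depths, so library sizes were recovered by finding those with which edgeR's average abundance of the deposited counts equals the deposited log2 column (largest residual 4.5e-09, at a dispersion of 0.0158; the dispersion estimated here over the listed peaks without covariate was 0.107). Whether a factor for unwanted variation entered the authors' fit was not given. Aged against young was tested in R 4.3.3 with edgeR 4.0.16 by the quasi-likelihood F test, two-sided, without covariate, adjusted by Benjamini-Hochberg over 529 peaks. SEs cover the spread between these libraries. The test was tried on simulated counts with known changes. At a dispersion of 0.107 it recovered 42% of peaks with a set log2 change of 1 in either direction and 98% of those with 2. It called 0.304% of unchanged peaks. Smaller changes, the size of most differences here, were not simulated, so a peak that did not pass may still differ.

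Alternatives were column totals, TMM, DESeq2 1.42.0 size factors, the likelihood ratio test of edgeR and the Wald test of DESeq2, a mean of at least 100 reads, the replicate number as a block, each library left out, and GENCODE M21 features for the classes. Sequences, GC content and soft-masked (repeat) bases came from GRCm38 (Python 3.11.15, pysam 0.24.0), with deposited starts counted from 0, which the table does not state. Exons and starts came from GENCODE M21, which held the first gene of 285 of the 297 peaks. Of the peaks, 18 lie in several genes and 14 in genes on both strands; the strand of the first row was used.

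Named peaks (54 peaks, 43 genes) were those past the test, the 4 largest rises and falls per class with a mean of at least 50 reads, genes in the study's text, up to 2 genes per list with the smallest p, and genes with at least 3 peaks. Other peaks named were chosen after their values were seen. The members and lists were chosen with earlier results of these data known. Some named genes are not reported here.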

Additional observations from a re-analysis of the deposited data

How the results depend on the processing

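The number of peaks outside the 5'UTR that rose was 6 with recovered sizes, column totals, TMM and DESeq2 size factors, and with a mean of at least 100 reads. It was 11 with edgeR's likelihood ratio test and 11 with DESeq2's Wald test. The number that fell was 0 with recovered sizes, 3 with column totals, 85 with TMM, 44 with DESeq2 size factors, and 1 each with the likelihood ratio and Wald tests. These scalings moved the log2 differences by a median over all listed peaks of -0.459 (column totals), -0.573 (TMM) and -0.583 (DESeq2 size factors). The latter pair centre the listed peaks, most of which are higher with the recovered sizes. They left 141 and 137 of the 297 above 0, against 190. Which scaling is right for these libraries was not tested. Leaving out 1 library gave 4 to 185 peaks that rose and 0 to 98 that fell, the highest counts being those without young library 2, and 190 above 0 each time.

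The replicate numbers did not pair the libraries: same-numbered libraries had correlations of their deviations of -0.186, -0.034 and -0.021. With the replicate number as a block (replicate block), 5 peaks rose and 1 fell. Among the named peaks, signs turned with TMM at Apoe (-0.020), Rbm15b (-0.020) and Espn (-0.0084), and with DESeq2 size factors at Apoe (-0.028), Rbm15b (-0.026), Espn (-0.029) and a Pcdh1 peak (-0.0026). By the GENCODE feature at the peak's centre, 50 peaks lay in a 3'UTR, 163 in coding sequence and 46 in an intron. Read depth limits thinly covered peaks such as Nrxn2 and the fifth Erdr1 peak.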
